A study of Mus musculus with 12 samples.

Results

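The genes described here are 10 feedback inhibitors of MAP kinase signalling in mouse 4T1 mammary tumours: the dual-specificity phosphatases Dusp1, Dusp2, Dusp4, Dusp5, Dusp6 and Dusp10, the sprouty genes Spry1, Spry2 and Spry4, and the sprouty-related gene Spred1. They were chosen by name, with earlier results of these libraries known, and are 10 of the 46078 genes in the count table. All 10 passed the filter on low counts, which left 18252 genes. Because the choice drew on measured values, their fold changes are given below as a description. Whether a member passed a threshold over all genes is stated as part of it, without printing its p-value. Other gene lists below were chosen in the same way, and the adjusted p-values printed for their genes are description too. Tumours grew in BALB/c mice from 300000 4T1 cells, a metastatic mouse mammary carcinoma line that here carries luciferase, placed in mammary fat pad number 4. Treatment started on day 14 and ran for 2 weeks, and mice were killed on day 28. MBQ-167, named in the series title as an inhibitor of the GTPases Rac and Cdc42, was given at 100 mg/kg 5 times a week. Paclitaxel, a drug that stabilises microtubules, was given at 5 mg/kg 1 time a week. Mice of the combination group received both drugs on those schedules, and mice of the vehicle group received neither. All groups share the host strain, the implanted line and the genotype label WT, and each holds 3 polyA RNA libraries. The titles call the libraries biological replicates, and the labels do not say that each is a separate mouse; the tests see only how far such libraries differ, which may be technical in part. They mention 2 occasions of cell injection without assigning libraries to them, so the occasion cannot be told apart from the group. One implanted line in one strain is a narrow model of breast cancer, and the libraries hold host cells beside tumour cells.

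Growth factor receptors act through RAS to switch on a kinase relay that ends in the MAP kinase ERK. Parallel relays end in the MAP kinases JNK and p38. MAP kinase signalling induces its own inhibitors, so the transcripts of these inhibitors are often used as a readout of recent signalling. Dual-specificity phosphatases remove phosphate from both the threonine and the tyrosine that activate a MAP kinase. Dusp1, Dusp2, Dusp4 and Dusp5 encode inducible phosphatases of the nucleus. Dusp6 encodes a cytoplasmic phosphatase selective for ERK, and Dusp10 one that prefers JNK and p38. Sprouty and Spred proteins act upstream, between receptors and RAF, and Spred proteins bring the RAS inhibitor neurofibromin to the membrane.

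RefSeq start sites gave promoter windows for 8 of the 10 genes, from 250 bases before to 50 bases after the start. Those of 4 phosphatases are printed. They cover the genes with the lowest fold changes against vehicle in every drug group, Dusp1 and Dusp10. The other windows are those of an inducible relative whose groups overlapped (Dusp5) and of the most abundant of the 10 (Dusp6). Each is read in the direction of transcription on GRCm38.p6. The windows are chr17:26508423-26508722 on the minus strand for Dusp1, chr1:184034131-184034430 on the plus strand for Dusp10, chr19:53528895-53529194 on the plus strand for Dusp5 and chr10:99262981-99263280 on the plus strand for Dusp6. Gene positions given below are from GENCODE and not RefSeq. By those positions the windows of Dusp1 (26505590 to 26562128) and Dusp10 (184013302 to 184075636) lie inside the gene, away from its outermost start. Other start sites of these genes were not searched. Capitals mark matches to the motifs named after the sequences.
Dusp1: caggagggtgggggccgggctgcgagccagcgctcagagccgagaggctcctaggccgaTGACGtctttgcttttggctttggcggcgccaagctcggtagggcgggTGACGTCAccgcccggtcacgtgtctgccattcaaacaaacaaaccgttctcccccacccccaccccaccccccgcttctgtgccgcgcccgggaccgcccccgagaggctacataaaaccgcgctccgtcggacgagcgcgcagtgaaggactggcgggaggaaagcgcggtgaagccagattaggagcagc
Dusp10: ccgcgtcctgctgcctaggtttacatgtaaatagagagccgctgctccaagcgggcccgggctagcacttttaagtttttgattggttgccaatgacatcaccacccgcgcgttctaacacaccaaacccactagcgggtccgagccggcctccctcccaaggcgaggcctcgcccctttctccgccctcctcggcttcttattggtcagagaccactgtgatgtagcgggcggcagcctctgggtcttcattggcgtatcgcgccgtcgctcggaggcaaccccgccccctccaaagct
Dusp5: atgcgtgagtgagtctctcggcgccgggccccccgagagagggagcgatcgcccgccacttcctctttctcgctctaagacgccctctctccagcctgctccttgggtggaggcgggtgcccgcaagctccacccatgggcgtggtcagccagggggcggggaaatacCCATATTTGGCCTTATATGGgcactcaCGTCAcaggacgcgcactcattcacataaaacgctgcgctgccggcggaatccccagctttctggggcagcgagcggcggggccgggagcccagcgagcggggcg
Dusp6: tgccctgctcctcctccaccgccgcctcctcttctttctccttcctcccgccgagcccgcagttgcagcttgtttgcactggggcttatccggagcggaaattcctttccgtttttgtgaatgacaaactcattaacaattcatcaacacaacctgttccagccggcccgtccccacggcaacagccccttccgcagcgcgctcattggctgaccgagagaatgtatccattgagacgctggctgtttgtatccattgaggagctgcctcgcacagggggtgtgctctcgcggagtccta
The motifs were searched on both strands in 32851 windows of the same length. The cAMP response element, TGACGTCA, was in 1.79% of all windows and, among the 8, in that of Dusp1 alone, with its first base at position -143 from the start. Its core TGACG, which lies inside the full element, was in 20.8% of all windows and in those of Dusp1, Dusp2 and Dusp5. Dusp1 has a further copy of the core with its first base at -191. The CArG box, the site of serum response factor, was in 1.63% of all windows and among the 8 in that of Dusp5, as CCATATTTGG with its first base at -82 and CCTTATATGG with its first base at -72. The ETS core CCGGAA was in 14.9% of all windows and in that of Spry2, and the AP-1 site, TGACTCA or TGAGTCA, was in 5.20% of all windows and in none of the 8. The windows of Dusp10 and Dusp6 held no match, which says only that these letters are not in these 300 bases. G and C made up 67.0% of the Dusp1 window, 61.0% of that of Dusp10, 66.7% of that of Dusp5 and 57.3% of that of Dusp6, against a median of 52.7% over all windows.

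Total counts ran from 11540557 to 17001562 per library, and 52.67% to 71.54% of them fell in protein-coding genes. A further 17.11% to 37.54% fell on 3 abundant features of chromosome 17. All 7 tumour epithelial markers were detected, with a summed level of 975 to 2977 CPM per library (CPM, counts scaled to library size). Summed macrophage markers ran from 1033 to 3137 CPM and fibroblast markers from 4405 to 9914 CPM. Vehicle library 3 stood apart in neutrophil markers, at 1847 CPM against 308 to 617 CPM in the other 11 libraries. The counts behind the 10 genes ran from 55, for Dusp2 in its lowest library, to 5287, for Dusp6 in its highest. Dusp1, with 7017 counts over all libraries, overlaps the start of Ergic1 (14255 counts), and Spry1 (15702) overlaps Gm42922 (2518), both on the opposite strand. Opposite-strand partners of Dusp10 and Spry4 had no more than 87 counts. Whether the counting used strand is not given in the sources used here, so reads of such partners cannot be told apart.

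**Figure D1:**
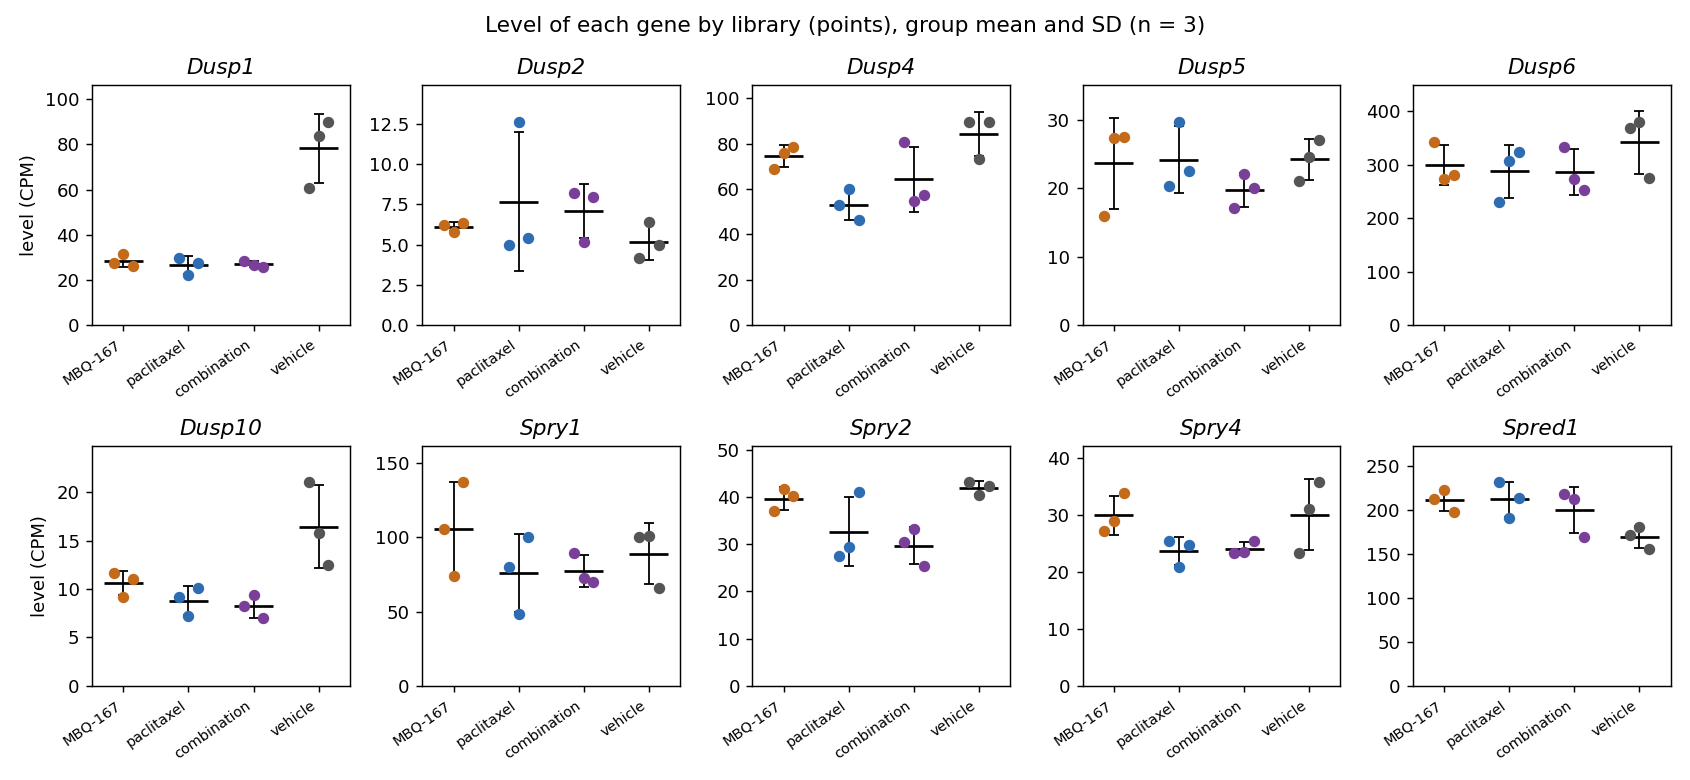
Level of each of the 10 genes in CPM (vertical axes, starting at 0 and scaled per gene) in MBQ-167, paclitaxel, combination and vehicle libraries. Points are libraries, the horizontal bar is the group mean and the error bar is the SD (n = 3). Dusp1 lies between 22.0 and 31.6 CPM in the 9 drug libraries and between 60.9 and 90.1 CPM in the 3 vehicle libraries.

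Per kilobase of exon, Dusp6 was the most abundant of the 10 transcripts in every group. It averaged 95.4 CPM per kilobase in MBQ-167 tumours, 91.8 in paclitaxel tumours, 91.4 in combination tumours and 109 in vehicle tumours, and its libraries did not overlap those of the next gene in any group. In vehicle tumours Dusp4 followed at 30.7 CPM per kilobase, then Spry1 at 30.6, Spred1 at 25.0, Dusp1 at 23.6 and Spry2 at 20.1. Each neighbouring pair in that stretch overlapped between libraries, so their order is within the spread. Dusp5 came next at 9.78 CPM per kilobase, clear of Spry2 above it and of Spry4 below it at 6.32. Dusp10, at 5.40, overlapped Spry4, and Dusp2, at 2.59, was the lowest. In the drug groups Dusp1 stood lower in this order. It averaged 8.58 CPM per kilobase in MBQ-167 tumours, 7.98 in paclitaxel tumours and 8.13 in combination tumours, and there it overlapped Dusp5 and no longer Spry2.

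Dusp1 stood apart from vehicle in all 3 drug groups, Dusp10 passed the test with paclitaxel and the combination, Dusp4 with paclitaxel, and the other 7 genes in none. The threshold was an adjusted p under 0.05 in edgeR's quasi-likelihood test over all genes. Of the 10 genes, 1 passed against vehicle with MBQ-167, where 0.0931% of the 18252 tested genes passed. With paclitaxel 3 passed, where 5.66% of all genes passed, and with the combination 2 passed, where 1.84% of all genes passed. All of these calls were lower than vehicle, a direction in which 0.0767%, 2.49% and 0.811% of all genes passed. Since the genes were chosen with such values known, nothing is read from these counts. With MBQ-167 2 members lay below all vehicle libraries and 1 above, where 17.3% of all genes did not overlap, 8.79% lower and 8.54% higher. With paclitaxel 3 lay below and 1 above, where 25.4% did not overlap, 12.1% lower and 13.2% higher. With the combination 3 lay below and none above, where 20.9% did not overlap, 9.86% lower and 11.0% higher. The median log2 fold change of the 10 was -0.06 with MBQ-167, -0.30 with paclitaxel and -0.31 with the combination, and 7, 8 and 8 of them were below 0. The medians over all tested genes were 0.0007, -0.0018 and 0.0009 in these comparisons. These 3 comparisons share the vehicle libraries.

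Dusp1 encodes a phosphatase for p38, JNK and ERK and is itself an immediate early gene. It lies on chromosome 17 (ENSMUSG00000024190, 26505590 to 26562128, minus strand, GRCm38). Its level was 27.6, 31.6 and 26.0 CPM in MBQ-167 libraries 1 to 3, 29.8, 22.0 and 27.5 CPM in paclitaxel libraries and 28.3, 26.7 and 25.8 CPM in combination libraries, against 60.9, 83.6 and 90.1 CPM in vehicle libraries. Every drug library lay below every vehicle library, and the 3 drug groups overlapped each other. The log2 fold change against vehicle was -1.46 ± 0.16 (SE, n = 3 per group throughout) with MBQ-167, -1.56 ± 0.16 with paclitaxel and -1.54 ± 0.16 with the combination. Dusp1 thus stood at 36.3%, 33.8% and 34.4% of its vehicle level in those groups. In bulk tumour RNA, fewer cells that express a gene and less RNA per cell cannot be told apart. Leaving out any 1 library kept the log2 fold change between -1.61 and -1.35 with MBQ-167, between -1.71 and -1.45 with paclitaxel and between -1.69 and -1.42 with the combination.

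Dusp10, the phosphatase that prefers JNK and p38, was the only other member whose libraries lay below all vehicle libraries in all 3 drug groups. It lies on chromosome 1 (ENSMUSG00000039384, 184013302 to 184075636, plus strand). Dusp10 had 11.6, 9.17 and 11.0 CPM in MBQ-167 libraries, 9.16, 7.19 and 10.1 CPM in paclitaxel libraries and 8.27, 9.35 and 7.01 CPM in combination libraries, against 21.0, 15.8 and 12.5 CPM in vehicle libraries. The vehicle libraries were the most spread, and the lowest of them was close to the highest drug library. The log2 fold changes of Dusp10 were -0.63 ± 0.21 with MBQ-167, -0.90 ± 0.21 with paclitaxel and -1.0 ± 0.21 with the combination. The value with paclitaxel passed in 3 of 6 fits that left out 1 library. It did not pass without vehicle library 1 (-0.68), paclitaxel library 1 (-0.93) or paclitaxel library 2 (-0.77), when only these groups were fitted (-0.90) or with a correction for GC content (-0.87). With the combination Dusp10 also passed, but only 1 of 6 such fits did, the one without vehicle library 3 (-1.17). The others gave -0.79 without vehicle library 1, -1.03 without vehicle library 2, -1.01 without combination library 1, -1.11 without library 2 and -0.90 without library 3. It did not pass either when only these groups were fitted (-1.0) or with the GC correction (-0.98).

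Dusp4, which encodes a nuclear phosphatase closely related to Dusp1, was lower with paclitaxel (chromosome 8, ENSMUSG00000031530, 34807297 to 34819894). Its level was 53.0, 60.1 and 46.2 CPM in paclitaxel libraries, against 89.6, 73.1 and 89.7 CPM in vehicle libraries, with no overlap. MBQ-167 libraries had 69.0, 75.6 and 78.6 CPM, and combination libraries had 80.8, 54.5 and 57.4 CPM. Combination library 1 stood with the vehicle libraries and the other two with the paclitaxel libraries. The log2 fold change of Dusp4 was -0.18 ± 0.15 with MBQ-167, -0.66 ± 0.15 with paclitaxel and -0.39 ± 0.15 with the combination. The paclitaxel value passed the threshold in 3 of 6 fits that left out 1 library. It did not pass without vehicle library 1 (-0.62), paclitaxel library 1 (-0.66) or paclitaxel library 3 (-0.58), when only these groups were fitted (-0.67) or with the GC correction (-0.55).

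Dusp2 and Dusp5, both inducible nuclear phosphatases, did not separate the groups. Dusp2, best known from activated lymphocytes, had 6.23, 5.78 and 6.33 CPM in MBQ-167 libraries, 4.96, 12.6 and 5.40 CPM in paclitaxel libraries and 8.18, 5.14 and 7.96 CPM in combination libraries, against 4.16, 6.40 and 5.00 CPM in vehicle libraries. Paclitaxel library 2 held the highest value, and the other paclitaxel libraries lay inside the vehicle range. The log2 fold change of Dusp2 was 0.24 ± 0.33 with MBQ-167, 0.55 ± 0.33 with paclitaxel and 0.45 ± 0.33 with the combination, and without paclitaxel library 2 the paclitaxel value was 0.00. The summed level of 11 T and NK cell markers was also highest in paclitaxel library 2, at 41.1 CPM. It was 21.3 to 29.3 CPM in MBQ-167 libraries, 16.8 to 41.1 in paclitaxel libraries and 21.4 to 25.5 in combination libraries, against 6.48 to 18.7 in vehicle libraries. No marker of that list was at 0 in all libraries of a group, none of the 10 that were tested passed the threshold against vehicle, and the part of these cells in the Dusp2 values was not tested.

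**Figure D2:**
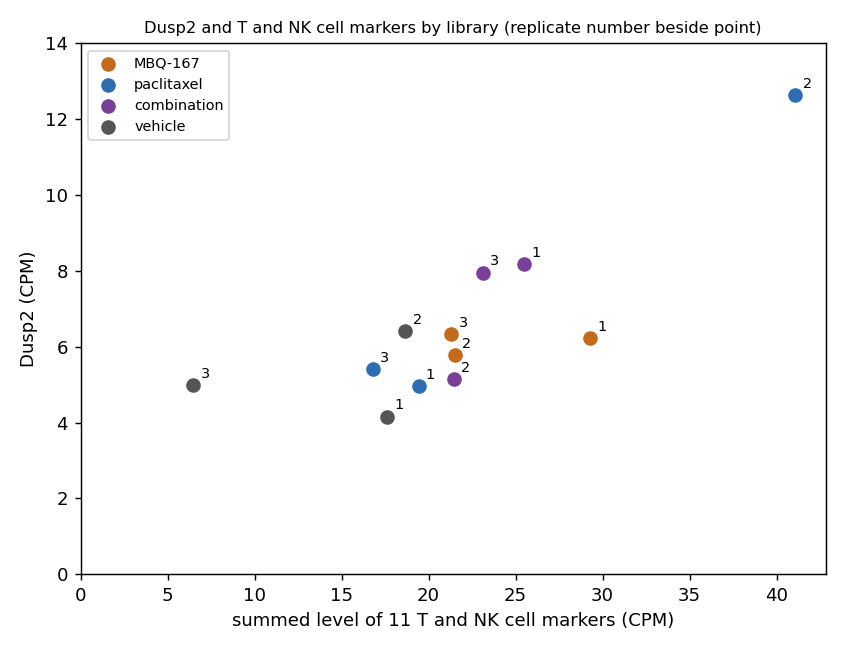
Level of Dusp2 (vertical axis, CPM) against the summed level of 11 T and NK cell markers (horizontal axis, CPM) in the 12 libraries. Each point is 1 library, coloured by group, with its replicate number beside it. Paclitaxel library 2 lies apart at 41.1 and 12.6 CPM, and the other 11 libraries reach at most 29.3 and 8.18 CPM.

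For Dusp5, the values were 16.0, 27.4 and 27.5 CPM in MBQ-167 libraries, 20.3, 29.7 and 22.5 CPM in paclitaxel libraries and 17.1, 22.0 and 20.1 CPM in combination libraries, against 21.0, 24.5 and 27.0 CPM in vehicle libraries. All 4 groups overlapped. The log2 fold changes were -0.03 ± 0.21 with MBQ-167, -0.01 ± 0.21 with paclitaxel and -0.29 ± 0.21 with the combination. Dusp6, the cytoplasmic ERK phosphatase, overlapped between all groups as well. It had 342, 274 and 280.3 CPM in MBQ-167 libraries, 231, 307 and 324 CPM in paclitaxel libraries and 334, 273 and 252 CPM in combination libraries, against 369.7, 381 and 275 CPM in vehicle libraries. Its log2 fold changes were -0.19 ± 0.17 with MBQ-167, -0.25 ± 0.17 with paclitaxel and -0.26 ± 0.17 with the combination. Vehicle library 3, the lowest of its group, lay inside the range of each drug group. Leaving out 1 library moved the value of Dusp6 to between -0.33 and -0.11 with MBQ-167, between -0.38 and -0.12 with paclitaxel and between -0.39 and -0.17 with the combination.

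**Figure D3:**
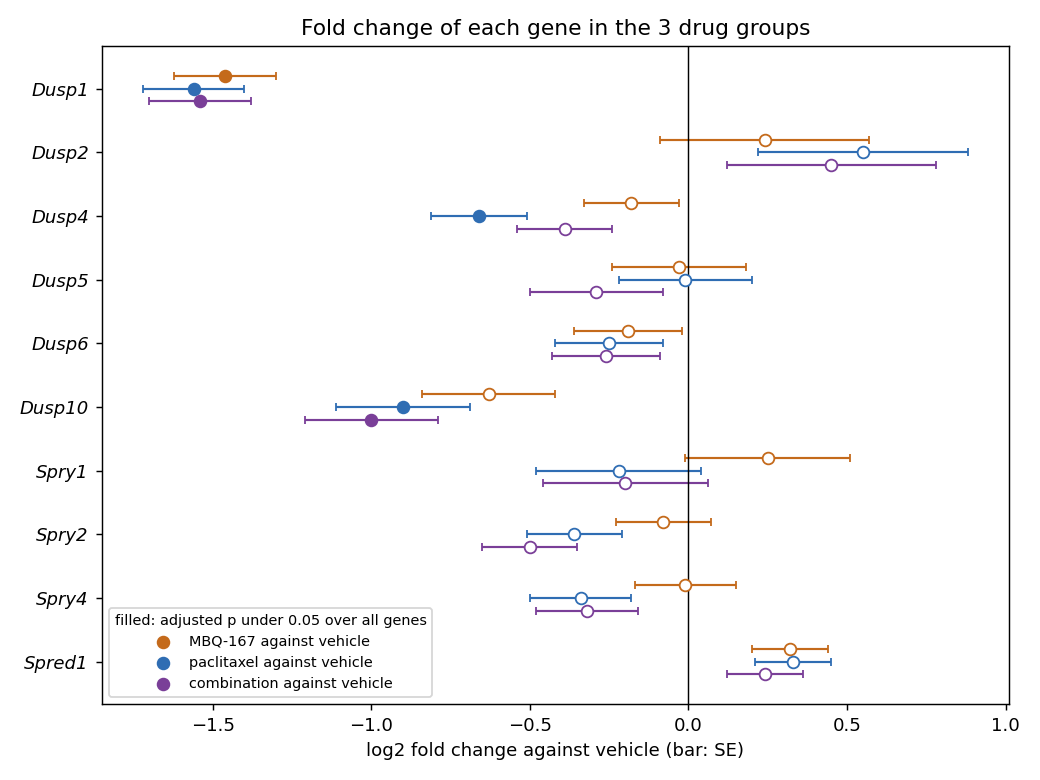
Log2 fold change against vehicle (horizontal axis) of the 10 genes (rows) with MBQ-167, paclitaxel and the combination. Bars are SE, and filled points have an adjusted p under 0.05 over all 18252 genes. Filled points are Dusp1 in all 3 comparisons, Dusp10 with paclitaxel and the combination, and Dusp4 with paclitaxel.

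The sprouty genes encode adaptors that restrain receptor signalling to RAS and RAF. Spry2 was lowest with the combination, at 30.5, 33.1 and 25.5 CPM in combination libraries against 43.1, 40.4 and 42.2 CPM in vehicle libraries, with no overlap. MBQ-167 libraries had 37.0, 41.7 and 40.1 CPM and paclitaxel libraries 27.5, 29.4 and 40.9 CPM. In paclitaxel library 3, Spry2 was level with the vehicle libraries, while the other paclitaxel libraries were near the combination. The log2 fold change of Spry2 was -0.08 ± 0.15 with MBQ-167, -0.36 ± 0.15 with paclitaxel and -0.50 ± 0.15 with the combination. None passed the threshold in edgeR. The combination value passed with DESeq2 (-0.50), and the paclitaxel value passed without paclitaxel library 3 (-0.56).

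All 4 groups overlapped for Spry1. It had 106, 74.0 and 137 CPM in MBQ-167 libraries, 80.2, 48.3 and 100.4 CPM in paclitaxel libraries and 89.8, 72.5 and 69.6 CPM in combination libraries, against 100.4, 101 and 65.6 CPM in vehicle libraries. The log2 fold changes of Spry1 were 0.25 ± 0.26 with MBQ-167, -0.22 ± 0.26 with paclitaxel and -0.20 ± 0.26 with the combination. Without MBQ-167 library 3 the first was 0.02, and without paclitaxel library 2 the second was 0.02, so its direction turned. For Spry4 the values were 27.1, 28.9 and 33.8 CPM in MBQ-167 libraries, 25.4, 20.9 and 24.7 CPM in paclitaxel libraries and 23.3, 23.5 and 25.4 CPM in combination libraries, against 23.4, 31.1 and 35.7 CPM in vehicle libraries. Vehicle library 1 lay among the paclitaxel and combination libraries, and the other vehicle libraries lay above them. The log2 fold change of Spry4 was -0.01 ± 0.16 with MBQ-167, -0.34 ± 0.16 with paclitaxel and -0.32 ± 0.16 with the combination.

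Spred1, the partner of neurofibromin, was the only member with higher libraries and no overlap. Its level was 213, 223 and 199 CPM in MBQ-167 libraries, 232, 191 and 214 CPM in paclitaxel libraries and 219, 212 and 169.8 CPM in combination libraries, against 171, 181 and 156 CPM in vehicle libraries. MBQ-167 and paclitaxel libraries lay above all vehicle libraries, and combination library 3 lay within the vehicle range. The log2 fold changes were 0.32 ± 0.12 with MBQ-167, 0.33 ± 0.12 with paclitaxel and 0.24 ± 0.12 with the combination, and none passed the threshold. With a correction for GC content they were 0.13, -0.07 and -0.09, so the direction with paclitaxel and the combination turned. Spred1 has the lowest transcript GC content of the 10, 41.8%, against 53.0% for Dusp1.

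**Figure D4:**
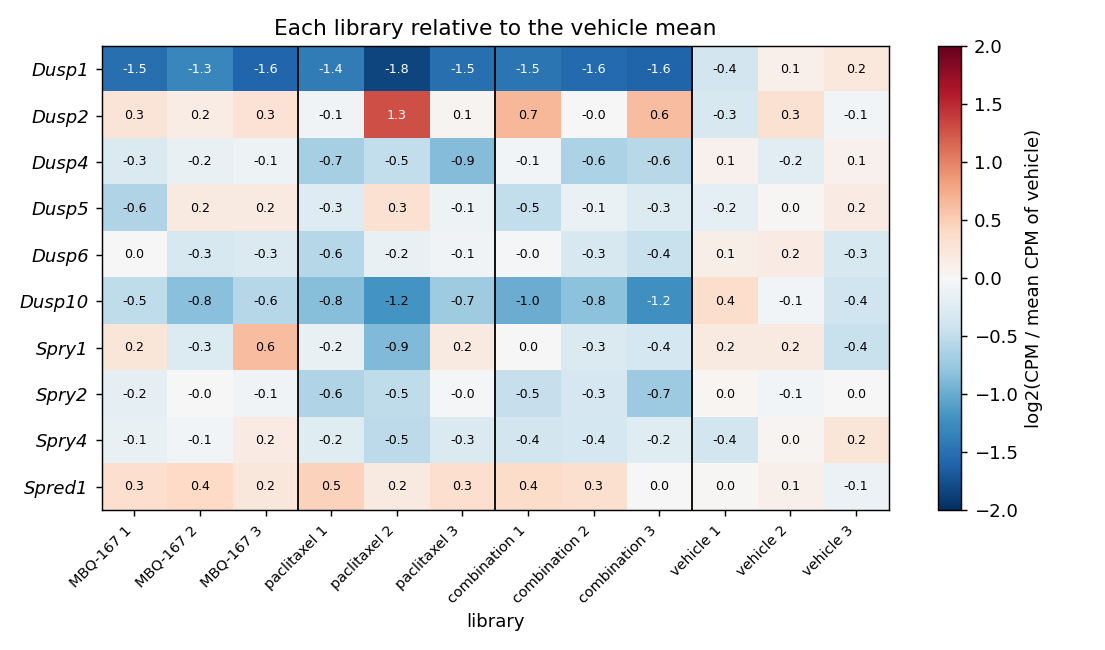
Log2 ratio of each library's CPM to the vehicle mean (colour and printed value) for the 10 genes (rows) in the 12 libraries (columns, by group). The row of Dusp1 lies between -1.8 and -1.3 in all 9 drug libraries. Those of Dusp4, Dusp10 and Spry2 lie below 0 in all 9 as well, closer to 0. Spry2 in MBQ-167 library 2 is almost at 0.

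Between the drug groups, no member passed the threshold in edgeR, where 0.0% of all genes passed in each comparison. At an unadjusted p under 0.05, 940 genes passed for the combination against MBQ-167, 430 for the combination against paclitaxel and 1256 for paclitaxel against MBQ-167. DESeq2 called 1, 5 and 36 genes there and limma voom called 0 in each. Dusp1 differed by -0.08 ± 0.16 between combination and MBQ-167, by 0.02 ± 0.16 between combination and paclitaxel and by -0.10 ± 0.16 between paclitaxel and MBQ-167. Spry2 (-0.42 ± 0.15) and Spry4 (-0.31 ± 0.16) were lower in combination than in MBQ-167 libraries without overlap, where 12.5% of all genes did not overlap and 5.92% were lower in that way. Dusp4 (-0.49 ± 0.15) and Spry4 (-0.34 ± 0.16) were lower in paclitaxel than in MBQ-167 libraries without overlap, where 15.3% did not overlap and 6.71% were lower in that way. No member separated combination from paclitaxel libraries, where 7.28% of all genes did not overlap.

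The interaction, the combination's change against vehicle less the changes with MBQ-167 and with paclitaxel, is 0 where the effects of the drugs add on the log2 scale. For Dusp1 it was 1.49 ± 0.22, close in size to the change with either drug alone, and the combination stood at the level of the single drugs. Dusp1 was the 1 member past the threshold, where 0.0603% of all genes passed and 0.0438% were positive. That share stands for 11 genes in edgeR, against 153 by DESeq2, 197 without a filter on low counts and 2 to 15 with 1 library left out. Its interaction ranged from 1.37 to 1.64 when 1 library was left out and passed in 5 of 12 such fits. The threshold was missed without MBQ-167 library 1 (1.47), 2 (1.57) or 3 (1.43), without paclitaxel library 1 (1.58), 2 (1.37) or 3 (1.51), or without combination library 2 (1.49). The interaction was 0.53 ± 0.30 for Dusp10, 0.45 ± 0.22 for Dusp4 and -0.41 ± 0.17 for Spred1. With 1 library left out these were 0.31 to 0.69, 0.25 to 0.56 and -0.48 to -0.30.

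Across the 12 libraries, the pairs of members most alike were Dusp10 with Dusp1 (Pearson r = 0.759 of log2 CPM) and Dusp10 with Spry2 (r = 0.74). Those most unlike were Dusp10 with Dusp2 (r = -0.647) and Spred1 with Dusp1 (r = -0.642). These are descriptions over libraries that share groups and scaling. Over the 15867 genes that averaged 1 CPM or more, the patterns most like that of Dusp1 were Fos (r = 0.961), Slc2a1 (r = 0.958) and Ppp1r15a (r = 0.949). Those most like Dusp10 were Psmb7 (r = 0.971), Ssrp1 (r = 0.957) and H2afy (r = 0.955). For Dusp4 they were E030037K01Rik (r = 0.905), Frmd8 (r = 0.903) and Slc25a30 (r = 0.893), and for Dusp6 they were Tspyl1 (r = 0.959), Gm5297 (r = 0.932) and D10Jhu81e (r = 0.919). For Dusp2 they were Ms4a4b (r = 0.895), Zap70 (r = 0.881) and Gm20705 (r = 0.872), and for Dusp5 they were Pcdhgb8 (r = 0.883), Kmt5a (r = 0.851) and Kcnk2 (r = 0.828). The pattern of Spry1 was most like that of Bad (r = 0.941), that of Spry2 most like Zfp503 (r = 0.916), that of Spry4 most like Ankrd11 (r = 0.936) and that of Spred1 most like Klra2 (r = 0.929).

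The erythroid marker sum, like Dusp1, separated all drug libraries from the vehicle libraries. The summed level of 7 erythroid markers was 44.6 to 107.5 CPM in MBQ-167 libraries, 14.5 to 106.6 in paclitaxel libraries and 32.6 to 67.5 in combination libraries, against 258 to 265 in vehicle libraries. Of the 6 that were tested, none passed the threshold with MBQ-167, and 3 were lower with paclitaxel and 3 with the combination. Summed neutrophil markers overlapped between MBQ-167 and vehicle libraries. They were 419 to 487 CPM in MBQ-167 libraries, 308 to 409 in paclitaxel libraries and 322 to 378 in combination libraries, against 479 to 1847 in vehicle libraries, and of 14 tested none, 10 and 9 were called lower. The part of these cells in the values of Dusp1, Dusp10 and Dusp4 was not tested. Without vehicle library 3, which was highest in neutrophil markers, the log2 fold change of Dusp1 was -1.35 with MBQ-167, -1.45 with paclitaxel and -1.42 with the combination. For Dusp10 the values without that library were -0.80, -1.06 and -1.17, and for Dusp4 they were -0.13, -0.62 and -0.34.

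The rest of the pathway is given by 6 lists with 127 other genes, of which 119 were tested. At the top of the relay, none of 28 growth factors and receptors passed the threshold in edgeR in any comparison with vehicle. The smallest p-values were those of Ereg, an EGF receptor ligand, with MBQ-167 (-1.35 ± 0.53, edgeR adjusted p = 0.307) and of Fgfr2, a receptor for fibroblast growth factors, with paclitaxel (-0.58 ± 0.23, adjusted p = 0.141) and the combination (-0.58 ± 0.23, adjusted p = 0.193). At an unadjusted p under 0.05 the list had 3, 3 and 2 genes with MBQ-167, paclitaxel and the combination, and DESeq2 and limma voom called 0 in each. Fgfr2 passed without a filter on low counts in both comparisons and, with paclitaxel, without vehicle library 2 (-0.79). Without vehicle library 3, its highest, the log2 fold change of Fgfr2 was -0.28 with paclitaxel and -0.27 with the combination, and that of Ereg with MBQ-167 was -0.73. Of 37 genes of the MAP kinase cascade, 1 passed with paclitaxel, where 5.66% of all genes passed, and none with MBQ-167 or the combination. Mapk9, which encodes a MAP kinase of the JNK family, was higher with paclitaxel, at 49.4 ± 2.69 CPM against 36.8 ± 3.16 CPM in vehicle (SD). Its log2 fold change was 0.43 ± 0.11 (edgeR adjusted p = 0.0378), it was 0.24 with a correction for GC content, and no fit that left out 1 library passed (0.36 to 0.48). Mapk9 was at 0.29 ± 0.11 with MBQ-167 (edgeR adjusted p = 0.296) and at 0.33 ± 0.11 with the combination (edgeR adjusted p = 0.133). In all 3 drug groups its libraries lay above all vehicle libraries, where 8.54%, 13.2% and 11.0% of all genes did with MBQ-167, paclitaxel and the combination.

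Among 12 ERK output genes, transcripts often used to score ERK activity, 2 were lower with the combination, where 0.811% of all genes were lower. None passed with either drug alone in edgeR, where 1 had an unadjusted p under 0.05 with MBQ-167 and 3 with paclitaxel. DESeq2 called 0 with MBQ-167 and 3 with paclitaxel there, and limma voom 0 with both. Ier3, a survival gene induced by stress and growth factors, had 45.7 ± 4.62 CPM in combination tumours against 91.3 ± 16.7 CPM in vehicle tumours (log2 fold change -1.0 ± 0.17, edgeR adjusted p = 0.02). Plaur, the urokinase receptor, had 44.4 ± 7.89 CPM against 70.7 ± 7.97 CPM (-0.67 ± 0.15, edgeR adjusted p = 0.0413). Ier3 did not pass without combination library 1 (-1.03), 2 (-1.05) or 3 (-0.92). Plaur did not pass without vehicle library 1 (-0.64) or 2 (-0.60) or without any 1 combination library (-0.57 to -0.82), and was -0.59 without passing under the GC correction. With paclitaxel the log2 fold change was -0.59 ± 0.17 for Ier3 (edgeR adjusted p = 0.0599) and -0.52 ± 0.15 for Plaur (edgeR adjusted p = 0.0571). DESeq2 called Plaur with paclitaxel (adjusted p = 0.0201). With MBQ-167 the values were -0.40 ± 0.17 and -0.21 ± 0.15. Between the combination and paclitaxel Ier3 and Plaur differed by -0.41 ± 0.17 and -0.15 ± 0.15, and neither passed. The other dual-specificity phosphatases included 1 call among 12 tested genes, with paclitaxel, where 5.66% of all genes passed. This was Dusp8, which acts on JNK and p38 as Dusp10 does. It had 3.88 ± 0.732 CPM with paclitaxel against 7.63 ± 1.72 CPM in vehicle (-0.97 ± 0.25, edgeR adjusted p = 0.0344). Its log2 fold change was -0.91 ± 0.25 with MBQ-167 (edgeR adjusted p = 0.152) and -0.87 ± 0.25 with the combination (edgeR adjusted p = 0.0822), and DESeq2 called it in both (adjusted p = 0.0431 and 0.0296). With paclitaxel, Dusp8 passed without vehicle library 2 alone among the 6 fits that left out 1 library, whose values ran from -1.14 to -0.77, and it did not pass with the GC correction (-0.84). Among 13 other feedback genes, 1 passed, with paclitaxel, where 5.66% of all genes passed. Nf1, which encodes neurofibromin, the RAS inhibitor that Spred1 binds, was higher there, at 180.5 ± 8.64 CPM against 134 ± 6.51 CPM in vehicle. Its log2 fold change was 0.43 ± 0.10 (edgeR adjusted p = 0.0203), and 0.29 with a correction for GC content (adjusted p = 0.142). It did not pass without vehicle library 1 (0.43) or 2 (0.40) or without paclitaxel library 1 (0.39) or 2 (0.44). Nf1 was at 0.22 ± 0.10 with MBQ-167 (edgeR adjusted p = 0.35) and at 0.34 ± 0.10 with the combination (edgeR adjusted p = 0.0792). DESeq2 called it with the combination (adjusted p = 0.0142). As for Mapk9, all drug libraries lay above all vehicle libraries. When only the groups compared were fitted, Mapk9, Nf1, Dusp8, Ier3 and Plaur did not pass in the comparisons in which edgeR had called them.

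The list nearest to Dusp1 was that of the immediate early transcription factors, which are induced within minutes of a stimulus and which, like the 10 genes, were listed with earlier results known. The name is loose, since the list also holds Zfp36, which encodes an RNA-binding protein. Of 17 tested, 6 were lower with MBQ-167, 12 with paclitaxel and 10 with the combination, and none was higher, where 0.0767%, 2.49% and 0.811% of all genes were lower. Since the list was chosen with such values known, nothing is read from these counts. The median log2 fold changes of the list were -0.78, -0.84 and -0.87 in these comparisons. Fos, an AP-1 subunit, had 11.0 ± 1.22 CPM in MBQ-167 tumours, 10.4 ± 3.14 in paclitaxel tumours and 14.9 ± 3.33 in combination tumours, against 57.1 ± 10.3 in vehicle tumours. Its log2 fold changes were -2.38 ± 0.23 (edgeR adjusted p = 0.000843), -2.44 ± 0.23 (adjusted p = 0.000594) and -1.95 ± 0.22 (adjusted p = 0.00387). Atf3, a stress-induced repressor, had 14.4 ± 1.07, 17.9 ± 3.93 and 19.8 ± 6.24 CPM in these drug groups, against 58.9 ± 7.30 in vehicle. Klf2, a transcription factor of endothelium and resting lymphocytes, had 16.6 ± 3.75, 16.6 ± 1.47 and 20.2 ± 1.40 CPM, against 42.7 ± 6.40 in vehicle. In the combination Klf2 did not pass without combination library 2 (-1.05), and Fosb with MBQ-167 (-3.16 ± 0.40) did not pass without MBQ-167 library 3 (-2.91). Zfp36, which encodes an RNA-binding protein that destabilises inflammatory mRNAs, was lower with the combination (-1.10 ± 0.18, edgeR adjusted p = 0.0175), but did not pass without combination library 1 (-1.12), 2 (-1.12) or 3 (-1.06). When only the groups compared were fitted, Klf2 with MBQ-167 (-1.37) and the combination (-1.08), Atf3 with the combination (-1.58) and Zfp36 (-1.10) did not pass either. Other genes of the list passed in no comparison: Egr2 differed by -0.07 ± 0.26, -0.11 ± 0.26 and -0.26 ± 0.26 and Ier2 by -0.03 ± 0.13, -0.20 ± 0.13 and -0.34 ± 0.14 (both chosen after their values were seen).

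**Figure D5:**
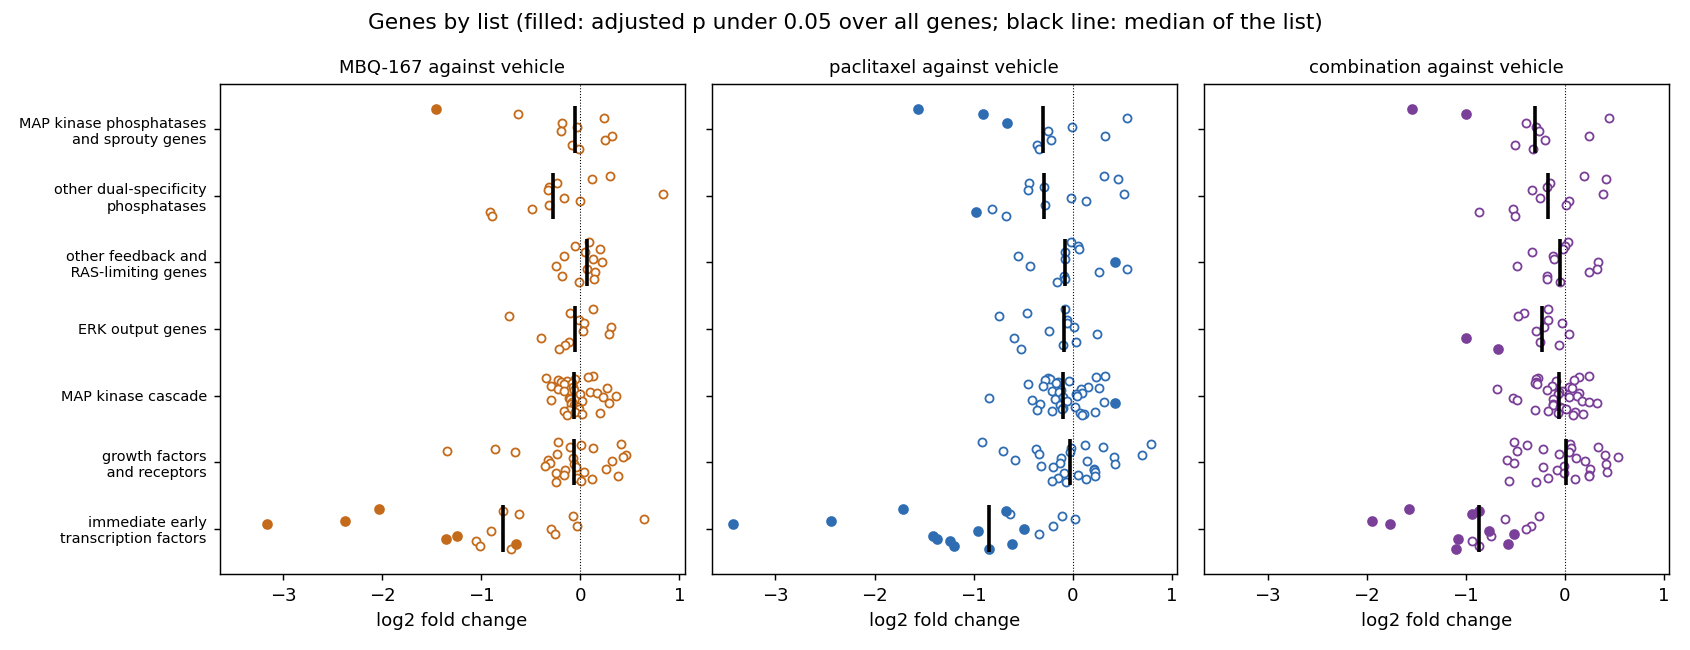
Log2 fold change against vehicle (horizontal axes, the same scale in all panels) of the 10 genes and of the 6 other lists (rows) with MBQ-167, paclitaxel and the combination. Points are genes, filled at an adjusted p under 0.05 over all genes, and the black line is the median of the list. Filled points of the immediate early transcription factors number 6, 12 and 10, and the medians of the other lists of non-members lie between -0.29 and 0.07.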

How the data were processed

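Tumour RNA was sequenced as 3 libraries in each of 4 groups. The authors deposited raw read counts per gene, all whole numbers. Per the submitters' processing notes, HISAT2, HTSeq, DESeq2 and GRCm38 were used; the sources used here do not give versions, annotation or strandedness. All columns were mapped to samples by their labels, and no pair of libraries held identical values.

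The genes and lists were chosen with earlier results of these data known. Genes were kept by filterByExpr of edgeR 4.0.16 (R 4.3.3, minimum count 10). TMM scaling and a quasi-likelihood model of the 4 group means over all 12 libraries were used (biological coefficient of variation 0.214, 8 residual degrees of freedom), with Benjamini-Hochberg adjustment over 18252 genes. SE is the absolute log2 fold change over the square root of F. P-values set the difference between group means against the spread between libraries. Length and position come from GENCODE vM21, promoters from RefSeq.

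All 10 members were named, the genes of each other list that passed against vehicle (at most 4) or else the smallest p, and for likeness the highest r. Jund, Egr2 and Ier2 were chosen after their values were seen. Alternatives were DESeq2 1.42.0, limma voom 3.58.1, RLE size factors, no filter, 1 CPM in 3 libraries, only the groups compared, a replicate block, omission of the 3 abundant features, a GC content offset (spline with 5 degrees of freedom, 18144 genes) and leaving out each library. The fit was tested on simulated data.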

Additional observations from a re-analysis of the deposited data

Results flagged for a closer look

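Among the 10 genes and the 6 other lists, 6 genes had an interaction between the drugs past the threshold in edgeR. Over all tested genes 0.0603% passed and 0.0438% were positive. The 10 genes and the lists were chosen with earlier results known, so nothing is read from this count. An interaction means that the change with 1 drug differed with and without the other. All 6 were positive, so the combination stood higher than the sum of the single-drug changes on the log2 scale. Fosb had 4.81 ± 0.56 (edgeR adjusted p = 0.00514) and Fos 2.88 ± 0.32 (edgeR adjusted p = 0.00514), and both passed however 1 of the 12 libraries was left out (4.20 to 5.17 and 2.70 to 3.13). Fosb averaged 4.8 CPM with MBQ-167 and 3.98 CPM with paclitaxel, against 42.7 CPM in vehicle tumours. Its combination libraries had 11.1, 20.8 and 5.59 CPM, below the 36.8 CPM of the lowest vehicle library. The Fosb combination libraries lay above all paclitaxel libraries (3.18, 4.35 and 4.42 CPM), where 7.28% of all genes did not overlap. They overlapped the MBQ-167 libraries (4.58, 6.79 and 3.04 CPM). Between the combination and either drug alone, 0 genes passed in edgeR. DESeq2 called 1 gene against MBQ-167 and 5 against paclitaxel, of which 1 was on the immediate early list. Atf3 had 2.17 ± 0.31 (edgeR adjusted p = 0.0286) and passed in 5 of 12 fits that left out 1 library (1.99 to 2.41). Atf3 missed the threshold without vehicle library 1 (2.22), any 1 MBQ-167 library (2.16, 2.23 and 2.12), paclitaxel library 2 (2.17) or 3 (2.01) or combination library 2 (1.99). Jund had 1.90 ± 0.28 (edgeR adjusted p = 0.0286) and passed in 4 of 12 (1.71 to 2.10). Jund missed it without vehicle library 1 (1.72), any 1 MBQ-167 library (1.90, 1.93 and 1.89), any 1 paclitaxel library (1.80, 2.02 and 1.89) or combination library 2 (1.87). Klf2 had 1.65 ± 0.24 (edgeR adjusted p = 0.0286) and passed in 6 of 12 (1.49 to 1.82). Klf2 missed it without MBQ-167 library 2 (1.67) or 3 (1.49), any 1 paclitaxel library (1.62, 1.73 and 1.61) or combination library 2 (1.68). Dusp1, chosen with such results known, had 1.49 ± 0.22 and passed in 5 of 12. Groups of 3 libraries are too small for a check of single outlying libraries.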

How the results depend on the processing

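Dusp1 kept its direction and its side of the threshold against vehicle in every alternative run, and the count of members called with MBQ-167 was 1 throughout. With paclitaxel the count of members called was 3, and it was 1 when only the groups compared were fitted and 1 with the GC content offset; leaving out 1 library gave 1 to 3. With the combination the count was 2, and it was 1 with only the groups compared and 1 with the GC content offset; leaving out 1 library gave 1 to 2. For the interaction the count was 1, and leaving out 1 library gave 0 to 1. Between drug groups it was 0 in all alternatives run. For the other pathway lists the count with MBQ-167 was 6, with 12 by DESeq2, 12 without a filter on low counts, 3 with only the groups compared and 3 to 6 leaving out 1 library. With paclitaxel it was 15, with 24 by DESeq2, 24 without a filter, 7 with only the groups compared, 8 with the GC content offset and 7 to 16 leaving out 1 library. With the combination it was 12, with 1 when only the groups compared were fitted, 7 with the GC content offset and 3 to 11 leaving out 1 library. Fits of fewer libraries have fewer residual degrees of freedom; the cause of the other shifts was not tested. Over all genes, calls were 17, 1033 and 336 for MBQ-167, paclitaxel and combination, against 325, 1772 and 958 by DESeq2, 5, 214 and 7 with only the groups compared, 392, 1554 and 849 without a filter, and 15, 345 and 52 with the GC content offset. Leaving out 1 library gave 5 (without MBQ-167 library 2 or 3) to 40 (without vehicle library 2), 247 (without paclitaxel library 2) to 1159 and 30 (without combination library 1) to 420. Of the single-gene values under alternatives, 1525 kept their call or moved by less than 1 SE, 22 moved further, 63 lost and 10 gained a call, and none of the called values turned direction.

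Of 18 same-numbered pairs of libraries, 6 correlated above 0.1 (range -0.175 to 0.252), and 5 of 12 libraries correlated best with their own number. These values do not settle whether the replicate numbers pair the libraries. With the replicate block the members called were 1, 3 and 2 with MBQ-167, paclitaxel and combination, as without it. Over all genes the block gave 24, 1092 and 300 calls. At this depth Dusp2, with as few as 55 counts, had the widest error of the 10.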
